A study of Saccharomyces cerevisiae with 12 samples.

Results

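The cytosolic large ribosomal subunit of budding yeast carries one set of proteins, most of them encoded by a pair of near-identical gene copies. The genes described here are the 81 whose standard symbol is RPL with a number and an optional A or B, together with RPP0, RPP1A, RPP1B, RPP2A and RPP2B, out of 6607 distinct identifiers in the deposited table. Genes of the mitochondrial ribosome (MRPL) are not among them. They form 35 pairs of paralogs (copies A and B) and 11 genes without a copy, and none was at 0 in every library. The large subunit holds the catalytic site that joins amino acids, the tunnel through which the new chain leaves, and a set of mobile stalks that bind translation factors and transfer RNA. Its messenger RNAs are among the most abundant in growing yeast, many of the genes contain an intron, and their transcription is set together by Rap1, Fhl1, Ifh1 and Sfp1.

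NAD, a nucleotide cofactor, can stand in place of the usual cap at the start of an RNA, and the study asked which yeast RNAs carry it. All libraries came from the strain BY4742, an alpha-mating-type haploid known to carry deletions in HIS3, LEU2, LYS2 and URA3, and cells were taken in mid-log growth at an OD600 of about 0.5. The medium was either YEPD or a minimal medium of yeast nitrogen base with a complete amino acid mixture, both with 2% dextrose. Total RNA, with ribosomal RNA still in it and unfragmented, was given the alkyne 4-pentynol with ADP-ribosylcyclase (ADPRC), which links the alkyne to an NAD cap, or was mock-treated without the enzyme. Biotin clicked onto the alkyne then let streptavidin beads retain the RNA, and first-strand cDNA was synthesized while it was still held there. Each of the 4 groups (minimal mock, minimal ADPRC, YEPD mock and YEPD ADPRC) held 3 libraries, and 1 YEPD ADPRC library is called unnumbered because its column carries no replicate number. Nothing in the labels ties replicates to separate cultures. The p-values therefore reflect only how far these libraries spread, which may be technical. A value that is higher with ADPRC is enriched over mock and does not give the share of an RNA that carries NAD, and a change in the number of molecules cannot be told apart from a change in their capping.

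Libraries held 3246900 to 13958188 reads. Open reading frames within the ribosomal DNA took between 50.7% and 54.7% of the reads of a minimal mock library and between 30.9% and 33.2% with ADPRC. In YEPD they took between 78.7% and 80.9% without the enzyme and between 64.8% and 79.5% with it. The alpha-cell genes STE3, MF(ALPHA)1 and MF(ALPHA)2 were present in all 12 libraries, the a-cell pheromone genes MFA1 and MFA2 did not exceed 5.09 normalized counts, the a-cell receptor gene STE2 was at 5.42 to 15.5, and LEU2, LYS2 and URA3 had 0 reads in each library, which allows up to 3 reads in each. HIS3, of which the deletion allele may leave part, was at 89.5 to 238 normalized counts. YEPD ADPRC replicate 2 stood apart from the other YEPD ADPRC libraries. Across the 81 genes its values were a median of 1.67-fold those of the mean of the other two (range 0.806 to 3.78), against 0.992-fold over all tested genes, and it was the highest library of its group for 77 of the 81. The number of members called and the leading changes in YEPD are therefore given with and without it. Other YEPD counts include it unless stated.

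As a group, large subunit protein genes were more abundant in ADPRC than in mock libraries. Of the reads outside the ribosomal DNA frames their share in minimal medium was 7.48% ± 0.173 (SD, n = 3) without and 10.2% ± 0.137 with the enzyme. In YEPD they took 5.46%, 5.54% and 5.77% in mock libraries and 7.24%, 9.62% and 6.86% in the unnumbered ADPRC library and ADPRC replicates 2 and 3. The ADPRC and mock groups did not overlap in either medium. Gene by gene, values were the authors' normalized counts on a log2(value + 1) scale, tested with limma over all 5490 genes with a mean of at least 10 (all 81 members among them) and called at a Benjamini-Hochberg adjusted p under 0.05, two-sided. Log2 changes are given ± SE. In minimal medium 39 of the 81 were higher with ADPRC and 0 lower, where 14.2% of all tested genes were called higher and 14.6% lower. Their median log2 change was 0.54, against 0.01 over all tested genes, and 75 of the 81 changes were above 0. ADPRC and mock libraries did not overlap for 67 members that were higher and 2 that were lower (27.5% and 27.3% of all tested genes). In YEPD 22 were higher and 0 lower, where 4.92% of all tested genes were called higher and 0.546% lower. The median there was 0.53 against -0.00066, 79 changes were above 0, and for 49 members all ADPRC libraries were above all mock libraries (15.2% of all tested genes). Genes of the small ribosomal subunit, the other subunit of the ribosome, gave 32 of 56 higher and 0 lower in minimal medium with a median of 0.66, and 13 higher and 0 lower in YEPD with a median of 0.53, or 25 higher with a median of 0.21 without YEPD ADPRC replicate 2.

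**Figure D1:**
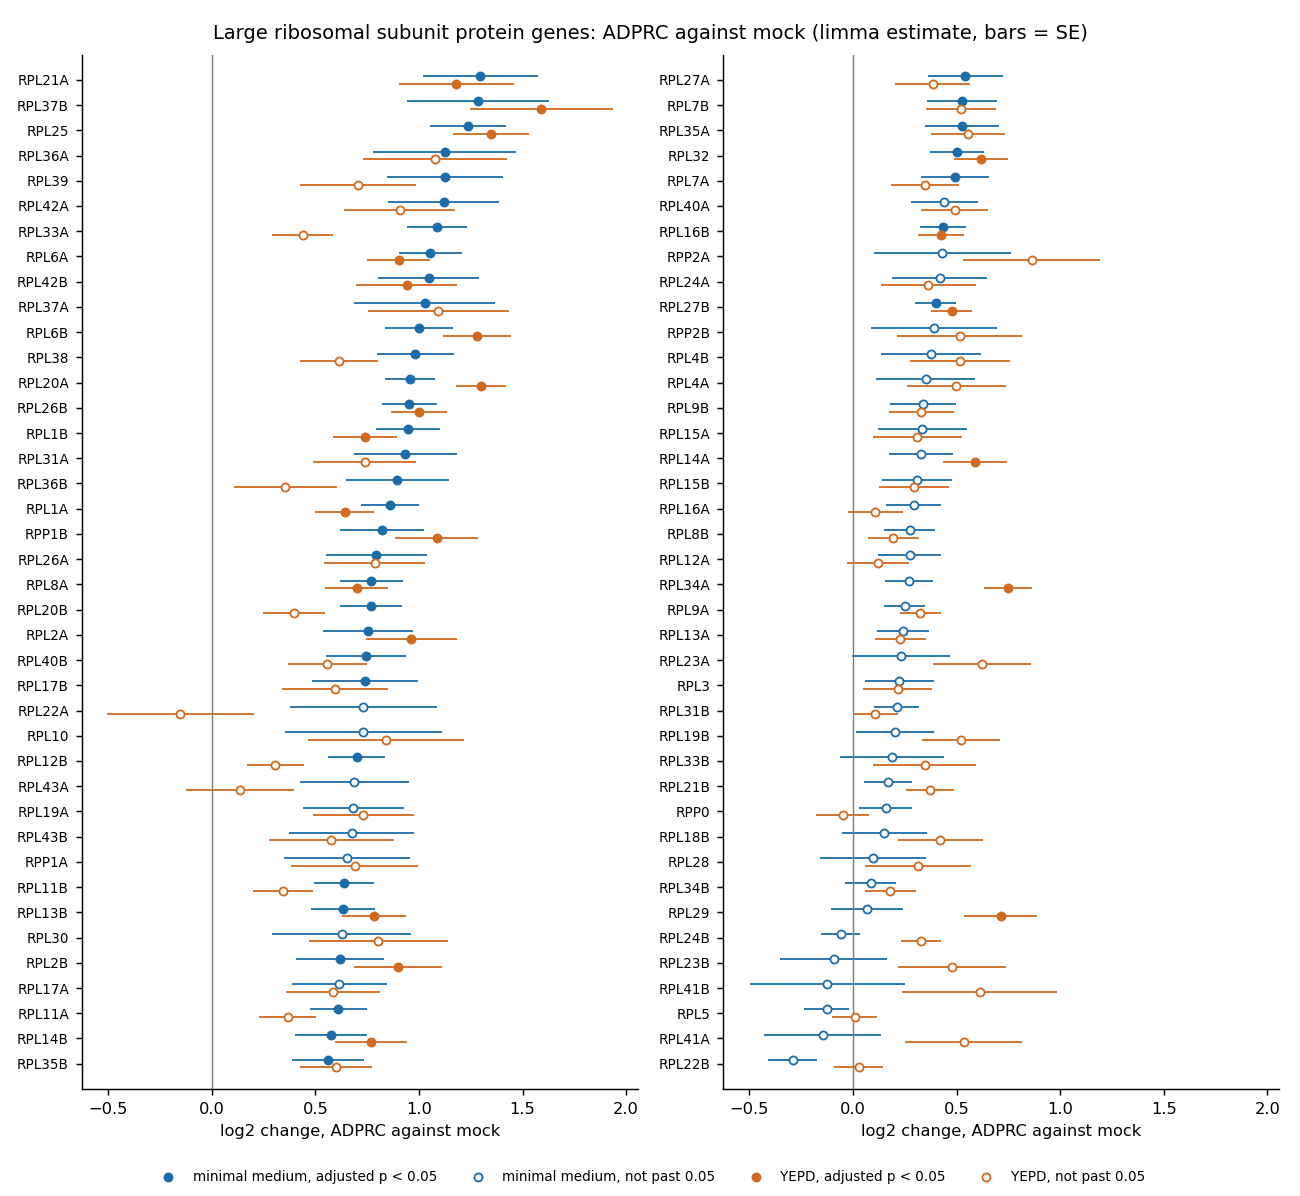
Log2 change (x axis) of ADPRC over mock libraries for 80 of the 81 genes (y axis), as estimated by limma from 3 libraries a group, with bars for the standard error. Blue marks minimal medium and orange YEPD, filled where the adjusted p was under 0.05. All but 6 of them lie above 0 in minimal medium, from -0.29 for RPL22B to 1.30 for RPL21A.

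The same genes were called in both media for 19 members, which is 48.7% of those called in minimal medium and 86.4% of those called in YEPD. A further 20 were called in minimal medium and not in YEPD, 3 in YEPD and not in minimal medium (RPL14A, RPL29 and RPL34A), and 39 in neither. These counts depended on single libraries and on the test. In minimal medium the count was 22 without mock replicate 1, 25 without mock replicate 2, 23, 22 and 25 without ADPRC replicate 1, 2 or 3, and 26 without mock replicate 3. In YEPD it was 8 and 9 without mock replicates 1 and 2, 37 without ADPRC replicate 2 and 51 without ADPRC replicate 3. Without ADPRC replicate 2, 6.17% of all tested genes were called higher in YEPD and the members' median fell to 0.24. edgeR, on recovered reads without YEPD mock replicate 2, called 33 and 8 members, and a limma fit on only the 6 libraries of 1 medium called 68 and 3. Except for the fit without YEPD ADPRC replicate 2, shares of all tested genes under these alternatives are not given.

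Several genes were higher in both media without any single library deciding the call. RPL25 encodes the protein at the tunnel exit to which the signal recognition particle binds. It stood at 2739, 3117 and 2886 normalized counts in minimal mock replicates 1, 2 and 3 and at 6679, 6568 and 7353 in minimal ADPRC replicates 1, 2 and 3. In YEPD it stood at 2363, 2236 and 2283 in mock replicates 1, 2 and 3 and at 5027, 8639 and 4583 in the unnumbered library and replicates 2 and 3 of ADPRC. Every ADPRC library was above every mock library, with YEPD ADPRC replicate 2 the highest of all. The log2 change was 1.24 ± 0.19 (adjusted p = 0.00127) in minimal medium and 1.35 ± 0.19 (adjusted p = 0.000885) in YEPD, and 1.07 in YEPD without that library. Both calls held without each library in turn, the YEPD call missing the threshold only in the fit on the YEPD libraries alone (adjusted p = 0.0533).

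RPL20A encodes a protein of the solvent side of the subunit. It was at 2755, 2818 and 2794 in the minimal mock and 5246, 5402 and 5603 in the minimal ADPRC libraries, and at 2441, 2490.1 and 2509 in the YEPD mock and 5563, 7407 and 5519.8 in the YEPD ADPRC libraries, in the same order. The mock libraries of a medium lay close together, and the ADPRC and mock groups did not overlap. The log2 changes were 0.96 ± 0.12 (adjusted p = 0.000952) and 1.30 ± 0.12 (adjusted p = 4.55e-05). RPL6B, one of the pair that encodes L6, was at 1841, 1753 and 2089 in the mock and 3973, 2969 and 4593 in the ADPRC libraries of minimal medium, and at 1639.7, 1924 and 2105 in the mock and 5248, 3965 and 4593 in the ADPRC libraries of YEPD. It was one of the 4 members for which YEPD ADPRC replicate 2 was not the highest of its group, and its groups did not overlap. Its log2 changes were 1.00 ± 0.16 (adjusted p = 0.00221) and 1.28 ± 0.16 (adjusted p = 0.000507). Without YEPD ADPRC replicate 2 the YEPD changes of RPL20A and RPL6B were 1.16 and 1.38. The calls of RPL20A and RPL6B held in both media under every alternative tried, and no other member's YEPD call did. RPL6A changed by 1.05 ± 0.15 (adjusted p = 0.00117) and 0.90 ± 0.15 (adjusted p = 0.00366), and RPL26B, which encodes a protein near the tunnel exit, by 0.95 ± 0.13 (adjusted p = 0.00117) and 1.00 ± 0.13 (adjusted p = 0.000731). Both kept their calls without each library in turn, but in YEPD RPL6A lost its call in the fit on only the YEPD libraries and both lost it with a replicate block.

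**Figure D2:**
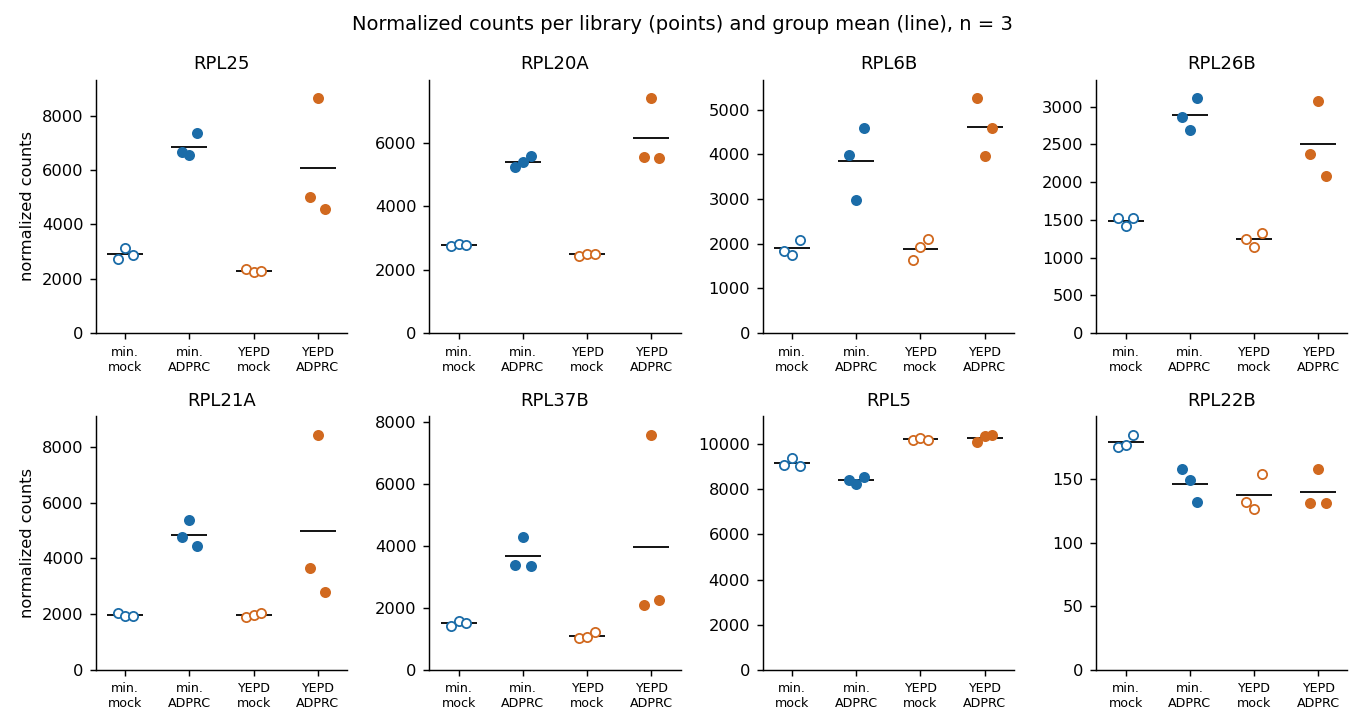
Normalized counts (y axis, from 0) of 8 members in each library, by group (x axis): open points are mock and filled points ADPRC libraries, blue minimal medium and orange YEPD, and the line is the mean of 3 libraries. The ADPRC libraries lie above the mock libraries in both media for the first 6 genes and not for RPL5 and RPL22B, and YEPD ADPRC replicate 2 is the highest orange point for RPL21A (8432) and RPL37B (7559).

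The highest change in minimal medium was that of RPL21A and the highest in YEPD that of RPL37B. RPL21A was at 2045, 1919.9 and 1949 in the mock and 4757, 5374 and 4439.5 in the ADPRC libraries of minimal medium, and at 1884, 1957 and 2025 in the mock and 3672, 8432 and 2806 in the ADPRC libraries of YEPD. Groups did not overlap, and within YEPD ADPRC the second replicate was far above the others. Its log2 change was 1.30 ± 0.28 (adjusted p = 0.00774) in minimal medium, where the call held under every alternative. In YEPD it was 1.18 ± 0.28 (adjusted p = 0.0242), or 0.72 without ADPRC replicate 2, and the call ended without YEPD mock replicate 1 (adjusted p = 0.102), YEPD mock replicate 2 (adjusted p = 0.0898) or without YEPD mock replicate 3 (adjusted p = 0.0723). RPL37B was at 1410.3, 1579 and 1491 in the mock and 3372, 4273 and 3339 in the ADPRC libraries of minimal medium, and at 1023, 1058 and 1204 in the mock and 2098, 7559 and 2243 in the ADPRC libraries of YEPD. Its groups did not overlap either, with the second YEPD ADPRC replicate again far above the others. The log2 change was 1.28 ± 0.34 (adjusted p = 0.0178) in minimal medium, a call that ended without minimal mock replicate 1 (adjusted p = 0.0565), minimal mock replicate 2 (adjusted p = 0.0508) or without minimal ADPRC replicate 2 (adjusted p = 0.0723). In YEPD it was 1.59 ± 0.34 (adjusted p = 0.0161), or 0.99 without ADPRC replicate 2, and the call ended without YEPD mock replicate 1 (adjusted p = 0.0791) or without YEPD mock replicate 2 (adjusted p = 0.0689). Its copy RPL37A had 1.03 (adjusted p = 0.0385, a call that ended without any 1 of the 6 libraries compared (adjusted p 0.0685 to 0.123)) and 1.09 (adjusted p = 0.0792), the latter 0.50 (adjusted p = 0.000494) without YEPD ADPRC replicate 2. With the length trend removed the minimal call of RPL37B also ended, at 0.93 (adjusted p = 0.0777).

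Others among the highest in minimal medium were RPL42A and RPL42B, the pair that encodes the zinc-binding protein L42, with 1.12 ± 0.27 (adjusted p = 0.0121) and 1.05 ± 0.24 (adjusted p = 0.0109). Both calls held under every alternative. In YEPD RPL42A had 0.91 ± 0.27 (adjusted p = 0.0667) and RPL42B 0.94 ± 0.24 (adjusted p = 0.0403), the latter a call that ended without YEPD mock replicate 1 (adjusted p = 0.141), YEPD mock replicate 2 (adjusted p = 0.138) or without YEPD mock replicate 3 (adjusted p = 0.0876). Without YEPD ADPRC replicate 2 these YEPD changes were 0.44 (adjusted p = 0.000334) for RPL42A and 0.54 (adjusted p = 0.000113) for RPL42B, so that both were called. RPL36A had 1.12 ± 0.35 (adjusted p = 0.0286) in minimal medium, a call that ended without any 1 of the 6 libraries compared (adjusted p 0.0636 to 0.0956) and that neither edgeR nor DESeq2 gave (adjusted p = 0.0511 and 0.0701, both on recovered reads without YEPD mock replicate 2). RPL33A was called at 1.09 ± 0.15 (adjusted p = 0.00117) in minimal medium under every alternative.

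Grouped by place in the subunit, many genes of the tunnel exit were higher with ADPRC in minimal medium. Proteins around the exit meet the signal recognition particle, the chaperones that fold new chains and the translocon. Of the 12 genes on that list 8 were higher in minimal medium and 2 in YEPD (RPL25 and RPL26B), with medians of 0.71 and 0.65, and none was lower. Of all 81 members 39 and 22 were called higher in these media, and of all tested genes 14.2% and 4.92%. Without YEPD ADPRC replicate 2 the YEPD count of the tunnel exit list was 8, with RPL19A, RPL19B, RPL26A, RPL31A, RPL35A and RPL35B added, and the median 0.32. In that fit 37 of the 81 members and 6.17% of all tested genes were called higher. Beside RPL25 and RPL26B, the calls in minimal medium were RPL39 (1.12), RPL31A (0.93), RPL26A (0.79), RPL17B (0.74), RPL35B (0.56) and RPL35A (0.53). RPL39, which lines the exit tunnel, was at 579, 559 and 625 in the mock and 1186, 1850.5 and 955 in the ADPRC libraries of minimal medium. The groups did not overlap, ADPRC replicate 2 was the highest, and the call (adjusted p = 0.0136) ended without minimal ADPRC replicate 2 (adjusted p = 0.0685) and also once the trend in length was taken out (adjusted p = 0.0898). The calls of RPL17B, RPL26A and RPL35A each ended without any 1 of the 6 libraries, those of RPL35B and RPL31A without 5 and 4 of them, at adjusted p-values of 0.0519 to 0.165. RPL31B, RPL19A, RPL19B and RPL17A were not called, with log2 changes of 0.21, 0.68, 0.20 and 0.62.

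The L1 stalk moves transfer RNA out of the ribosome, and its protein comes from RPL1A and RPL1B. RPL1A was at 4310.3, 4086 and 4398 in the mock and 7483, 7296 and 8476 in the ADPRC libraries of minimal medium. RPL1B was at 4748, 4394 and 4767 in the mock and 8653, 8497 and 9698 in the ADPRC libraries. The groups did not overlap for either copy, and both were called in both media. The log2 changes of RPL1A were 0.86 ± 0.14 (adjusted p = 0.00223) and 0.64 ± 0.14 (adjusted p = 0.0178), and those of RPL1B 0.95 ± 0.16 (adjusted p = 0.00221) and 0.74 ± 0.16 (adjusted p = 0.0138). Without YEPD ADPRC replicate 2 the YEPD changes were 0.49 and 0.55. The YEPD call of RPL1A ended without YEPD mock replicate 1 (adjusted p = 0.094) or without YEPD mock replicate 2 (adjusted p = 0.0762), and that of RPL1B without YEPD mock replicate 1 (adjusted p = 0.0791) or without YEPD mock replicate 2 (adjusted p = 0.0626).

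The P stalk recruits elongation factors. It is built from RPP0, which anchors it to ribosomal RNA, from the acidic proteins of RPP1A, RPP1B, RPP2A and RPP2B, and from L12 (RPL12A and RPL12B) at its base. Of these 7 genes 2 were higher in minimal medium (RPP1B and RPL12B) and 1 in YEPD (RPP1B). Beside them, 39 and 22 of the 81 members and 14.2% and 4.92% of all tested genes were called higher. RPP1B was at 1114, 1213 and 1190.4 in minimal mock, 2052, 1988 and 2177 in minimal ADPRC, 758, 751 and 908 in the mock and 1466, 2644 and 1276 in the ADPRC libraries of YEPD. Its groups did not overlap, and its log2 changes were 0.82 ± 0.20 (adjusted p = 0.0128) and 1.09 ± 0.20 (adjusted p = 0.00644). The YEPD change was 0.77 without ADPRC replicate 2. Both calls held without each library in turn, though in YEPD not in the fit on that medium alone (adjusted p = 0.125) or with a replicate block (adjusted p = 0.107). RPL12B had 0.70 ± 0.14 (adjusted p = 0.0055) in minimal medium, a call that ended once the trend in length was taken out (0.25, adjusted p = 0.0675), and its copy RPL12A had 0.27 ± 0.15 (adjusted p = 0.179). The anchor RPP0 had 0.16 ± 0.13 (adjusted p = 0.366) and, in YEPD, -0.05 ± 0.13 (adjusted p = 0.829). RPP1A, RPP2A and RPP2B had 0.65, 0.43 and 0.39 in minimal medium and 0.69, 0.86 and 0.51 in YEPD, with standard errors of 0.30 to 0.33 and no call. In the fit that omits YEPD ADPRC replicate 2, these YEPD changes were 0.18, 0.31 and 0.003.

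Proteins that travel into the subunit with 5S ribosomal RNA are encoded by RPL5, RPL11A and RPL11B. RPL11A and RPL11B were higher in minimal medium, by 0.61 ± 0.14 (adjusted p = 0.00989) and 0.64 ± 0.14 (adjusted p = 0.00968), and were not called in YEPD (0.37 and 0.34, or 0.18 and 0.15 without ADPRC replicate 2). With the length trend removed the minimal changes were 0.18 (adjusted p = 0.108) and 0.21 (adjusted p = 0.0734), and both calls ended. RPL5 was among the lowest in both media. It stood at 9071, 9397 and 9042 in the mock and 8392, 8245 and 8556 in the ADPRC libraries of minimal medium, and at 10175, 10291 and 10201 in the mock and 10084, 10365 and 10398 in the ADPRC libraries of YEPD. The minimal ADPRC libraries lay below all minimal mock libraries, while the YEPD groups overlapped. The log2 changes were -0.13 ± 0.11 (adjusted p = 0.389) and 0.01 ± 0.11 (adjusted p = 0.973), so neither was called.

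Around the peptidyl transferase centre and the P site, where the bond is made, lie L3, L4 and L10. None of RPL3, RPL4A, RPL4B and RPL10 was called by limma in either medium. All 4 had minimal ADPRC libraries wholly above mock, as did 67 of the 81 members and 27.5% of all tested genes. RPL3 had 0.22 ± 0.17 (adjusted p = 0.323) and 0.22 ± 0.17 (adjusted p = 0.405). RPL10 was at 4592, 4135 and 4756 in the mock and 6857, 9457 and 6367 in the ADPRC libraries of minimal medium, and at 1210.3, 1107 and 1437 in the mock and 1541, 5422 and 1325 in the ADPRC libraries of YEPD. The second YEPD ADPRC replicate was several-fold above the other YEPD libraries, and ADPRC replicate 3 lay within the mock range. The log2 change of RPL10 was 0.73 ± 0.38 (adjusted p = 0.153) and 0.84 ± 0.38 (adjusted p = 0.164), and 0.20 in YEPD without that library. RPL4A had 0.35 and 0.50, and RPL4B 0.37 and 0.52. When YEPD ADPRC replicate 2 was left out, the YEPD changes of RPL3, RPL4A and RPL4B were 0.0065, 0.12 and 0.12.

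The bridges between the subunits are made in part by L19, L24 and L41. None of these 6 genes was called in either medium, with medians of 0.07 in minimal medium and 0.53 in YEPD. In the fit that omits YEPD ADPRC replicate 2, the YEPD median was 0.21, and 3 of the 6 were called higher: RPL19A at 0.32 (adjusted p = 0.00201), RPL19B at 0.22 (adjusted p = 0.0396) and RPL24B at 0.28 (adjusted p = 0.0112). That fit called 37 of the 81 members and 6.17% of all tested genes higher. RPL41A and RPL41B encode the shortest protein of the ribosome, from spans of 78 bases each. RPL41A was at 682, 426 and 587 in the mock and 459, 592 and 464 in the ADPRC libraries of minimal medium, and RPL41B at 121, 58.4 and 100.2 in the mock and 67.1, 98 and 83.4 in the ADPRC libraries. The groups overlapped for both, with log2 changes of -0.15 ± 0.28 (adjusted p = 0.719) and -0.12 ± 0.37 (adjusted p = 0.823) in minimal medium and 0.53 ± 0.28 (adjusted p = 0.225) and 0.61 ± 0.37 (adjusted p = 0.291) in YEPD, or 0.20 and 0.18 without YEPD ADPRC replicate 2. RPL24B had -0.06 and 0.33, and RPL23B, which is not a bridge gene, -0.09 and 0.48, the YEPD value of RPL23B being 0.13 without that library.

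RPL22A, RPL22B and RPL30 encode proteins that act back on the splicing of their own or each other's transcripts, and none was called with ADPRC. RPL22B, the minor copy of its pair in minimal medium, had the lowest change of all members there. It stood at 175, 177 and 184 in the mock and 158, 149 and 132 in the ADPRC libraries of minimal medium, with every ADPRC library below every mock library. The change was -0.29 ± 0.12 (adjusted p = 0.0799), and in YEPD 0.03 ± 0.12 (adjusted p = 0.906) with overlapping groups. RPL22A had 0.73 ± 0.36 (adjusted p = 0.129) in minimal medium and -0.15 ± 0.36 (adjusted p = 0.809) in YEPD, where its values were only 6.79 to 26.9 normalized counts. RPL30 had 0.63 ± 0.34 (adjusted p = 0.168) and 0.80 ± 0.34 (adjusted p = 0.141). When YEPD ADPRC replicate 2 was left out, the YEPD changes of RPL22A and RPL30 were -0.71 (adjusted p = 0.0602) and 0.21 (adjusted p = 0.0791).

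Among the other genes without a copy, RPL38 and RPL32 were called and RPL28 was not. RPL38 was at 1394, 1367 and 1355 in the mock and 2588, 2486 and 3102 in the ADPRC libraries of minimal medium. The groups lay far apart, with a log2 change of 0.98 ± 0.19 (adjusted p = 0.00431) that held under every alternative, and 0.61 ± 0.19 (adjusted p = 0.0741) in YEPD, which was 0.33 (adjusted p = 0.0158) without YEPD ADPRC replicate 2. RPL32 had 0.50 ± 0.13 (adjusted p = 0.0157) and 0.62 ± 0.13 (adjusted p = 0.0138). Its minimal call ended without minimal ADPRC replicate 1 (adjusted p = 0.057) or without minimal ADPRC replicate 3 (adjusted p = 0.0531), and its YEPD call without YEPD mock replicate 1 (adjusted p = 0.0741) or without YEPD mock replicate 2 (adjusted p = 0.0628). With the length trend removed the minimal change of RPL32 was -0.011. RPL28 had 0.10 and 0.31, the latter 0.07 without YEPD ADPRC replicate 2. RPL29 had 0.07 ± 0.17 (adjusted p = 0.79) in minimal medium and 0.71 ± 0.17 (adjusted p = 0.0296) in YEPD, where its call ended without YEPD mock replicate 1 (adjusted p = 0.157), YEPD mock replicate 2 (adjusted p = 0.117), the unnumbered YEPD ADPRC library (adjusted p = 0.0567) or without YEPD ADPRC replicate 2 (adjusted p = 0.107). RPL40A and RPL40B each encode ubiquitin fused to a ribosomal protein. RPL40B had 0.74 ± 0.19 (adjusted p = 0.0155) in minimal medium, a call that ended without minimal mock replicate 1 (adjusted p = 0.0542) or without minimal ADPRC replicate 2 (adjusted p = 0.0651), and 0.56 ± 0.19 (adjusted p = 0.0994) in YEPD. RPL40A had 0.44 ± 0.16 (adjusted p = 0.0552) and 0.49 ± 0.16 (adjusted p = 0.0892). In the fit that omits YEPD ADPRC replicate 2, the YEPD changes were 0.24 (adjusted p = 0.0232) and 0.25 (adjusted p = 0.0394), so that both copies were called.

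Changes fell with gene span over the whole table, and showed little relation to span across the members. Across 5423 tested genes with a known span from start to stop (introns included), the ADPRC change fell with span, at a Spearman rho of -0.68 in minimal medium and -0.69 in YEPD. Across the 81 members, whose spans ran from 78 to 1662 bases with a median of 795, rho was -0.05 and -0.00064. The genes within each such rho share the same libraries and are not independent. Introns count toward span, here and wherever a length trend was removed. The relation of the changes to spliced length was not tested. The 8 members of up to 400 bases had median changes of 0.41 and 0.62 in minimal medium and YEPD, the 33 of over 400 and up to 800 bases 0.68 and 0.48, and the 40 longer ones 0.51 and 0.52. When the trend over all genes was removed, 21 members were higher and 6 lower in minimal medium and 13 higher in YEPD, with medians of 0.25 and 0.29. The share of all tested genes called in that fit is not given, so these counts cannot be set beside it. The 6 that became lower were RPL41A (-1.06), RPL41B (-1.04), RPL29 (-0.65), RPL22B (-0.63), RPL24B (-0.52) and RPL5 (-0.36). The members of longest span, RPL7A, RPL7B, RPL2B and RPL3, had 0.49, 0.53, 0.62 and 0.22 in minimal medium. The calls of RPL7A, RPL7B and RPL2B there each ended without any 1 of the 6 libraries (adjusted p 0.0708 to 0.125).

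Whether ADPRC had a different effect in the 2 media was tested as the difference of the changes. With limma 0 of the 81 members and 0 of 5490 genes were called, which is 0% of all tested genes. At an unadjusted p under 0.05 there were 4 members (RPL33A, RPL34A, RPL24B and RPL29) and 462 genes (8.42%), and the smallest adjusted p of a member was 0.381. edgeR and DESeq2 also called 0 members, on recovered reads without YEPD mock replicate 2. The 81 minimal and YEPD changes had a Spearman rho of 0.65, a description across genes measured in the same libraries. When YEPD ADPRC replicate 2 was left out, the YEPD median fell to 0.24, and 28 members had a higher and 2 a lower change in minimal medium than in YEPD, where 8.96% and 10.1% of all tested genes were called. Among them were RPL33A (0.77 ± 0.16, adjusted p = 0.00115), RPL38 (0.65 ± 0.12, adjusted p = 0.000421) and RPL20B (0.59 ± 0.09, adjusted p = 8.28e-05) on the higher side, and RPL34A (-0.36) and RPL24B (-0.34) on the lower. RPL33A averaged only 25.7 normalized counts in YEPD mock libraries, and changes of low genes are understated on the scale used. Weights per library gave 19 higher and 3 lower members, for which the share of all tested genes is not given.

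Paralog pairs encode the same or nearly the same protein, and the 2 copies did not always behave alike. In minimal medium both copies were called in 12 of the 35 pairs, 1 copy in 11 and neither in 12. In YEPD these counts were 4, 11 and 20. A call of 1 copy alone does not show that the copies differ, as their changes can fall close on either side of the threshold. In minimal medium RPL17A had 0.62 (adjusted p = 0.0569) and RPL17B 0.74 (adjusted p = 0.0452). The log2 ratio of copy A to copy B was computed in each library and is described without a test. It did not overlap between ADPRC and mock libraries in 20 of 35 pairs in minimal medium (57.1%, beside 50% of the 24 small subunit pairs) and in 12 in YEPD (34.3%, beside 33.3%). Over the libraries other than YEPD ADPRC replicate 2, the YEPD count was 22. Leaving out a library can only keep or raise such a count, so nothing is drawn from the rise. How reads that match both copies were placed is not given in the sources used here, so the values of near-identical copies are uncertain.

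**Figure D3:**
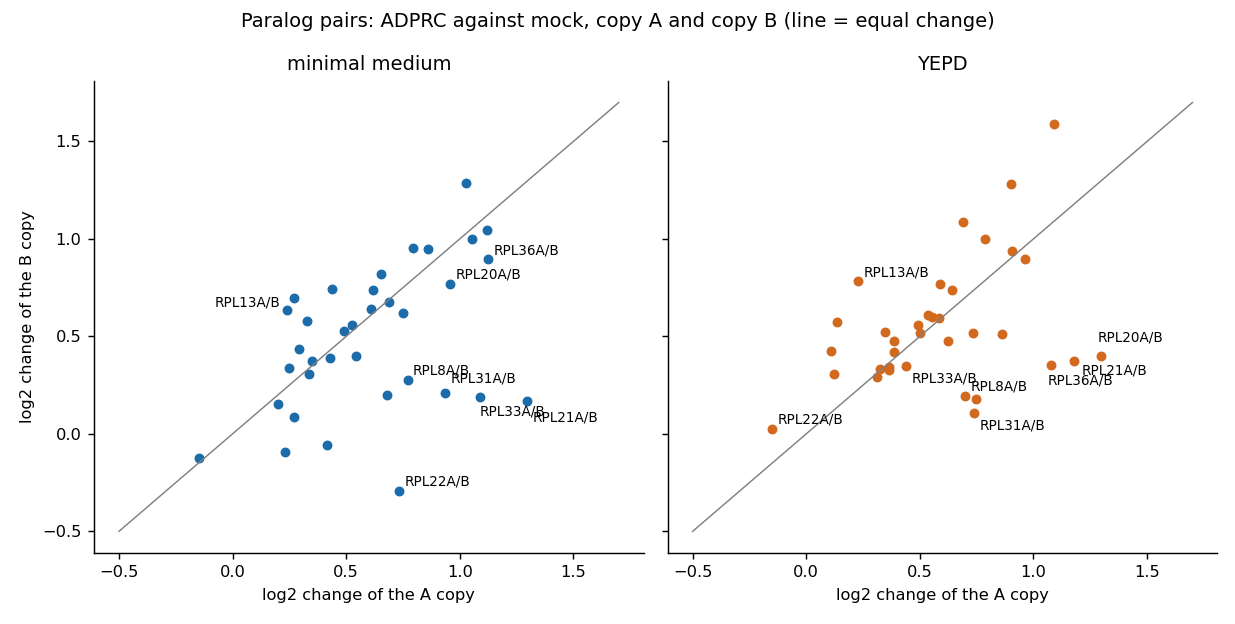
Log2 change of ADPRC over mock for copy A (x axis) and copy B (y axis) of the 35 paralog pairs, in minimal medium (left) and YEPD (right). Points on the line changed equally, and the 8 labelled pairs had the largest difference between copies averaged over both media, led by RPL21A/B at 0.97.

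Averaged over both media, the widest split was that of RPL21A and RPL21B, copies of the gene for L21. In YEPD alone the ratio of RPL20A to RPL20B shifted more, by 0.90 against 0.81, or 0.98 against 0.42 without ADPRC replicate 2. The log2 ratio of RPL21A to RPL21B was -0.08, 0.09 and 0.05 in the mock and 1.14, 1.38 and 0.93 in the ADPRC libraries of minimal medium, and 0.19, 0.12 and 0.10 in YEPD mock and 0.69, 1.71 and 0.43 in YEPD ADPRC libraries. The copies were thus near equal in every mock library and RPL21A was ahead in every ADPRC library. RPL21B itself had a change of 0.17 ± 0.12 (adjusted p = 0.282) in minimal medium and 0.37 ± 0.12 (adjusted p = 0.0787) in YEPD, which was 0.29 (adjusted p = 0.0275) without ADPRC replicate 2. In RPL31A and RPL31B the ratio moved from 1.85, 2.03 and 2.05 to 2.62, 2.79 and 2.68 in minimal medium and from 1.59, 1.49 and 1.67 to 1.85, 3.0 and 1.79 in YEPD. The RPL31A copy was the major one in all libraries, and RPL31B had 0.21 and 0.11. RPL20A and RPL20B were set apart mainly in YEPD, with ratios of 0.05, 0.04 and 0.18 in mock and 1.03, 0.84 and 1.10 in ADPRC libraries, against 0.34, 0.45 and 0.39 in mock and 0.56, 0.53 and 0.66 in ADPRC libraries of minimal medium. RPL20B had 0.77 ± 0.15 (adjusted p = 0.00497) in minimal medium and 0.40 ± 0.15 (adjusted p = 0.119) in YEPD, or 0.18 without ADPRC replicate 2.

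RPL13A and RPL13B moved the other way. Their log2 ratio was -1.03, -0.98 and -1.14 in the mock and -1.48, -1.34 and -1.51 in the ADPRC libraries of minimal medium, and -0.63, -0.69 and -0.77 in the mock and -1.38, -1.33 and -1.03 in the ADPRC libraries of YEPD. Copy B was the major copy throughout and more so with ADPRC. RPL13B was called in both media (0.63 ± 0.16, adjusted p = 0.013 and 0.78 ± 0.16, adjusted p = 0.0104), with the YEPD call ending without YEPD mock replicate 1 (adjusted p = 0.0674), and RPL13A in neither (0.24 and 0.23). RPL8A was called in both media (0.77 ± 0.15, adjusted p = 0.00512 and 0.70 ± 0.15, adjusted p = 0.0157) and RPL8B in neither (0.27 and 0.19), the YEPD call of RPL8A ending without YEPD mock replicate 1 (adjusted p = 0.0814), YEPD mock replicate 2 (adjusted p = 0.0538) or without YEPD mock replicate 3 (adjusted p = 0.0544). RPL33A was called in minimal medium and RPL33B was not (1.09 and 0.19). RPL34A was called in YEPD and not in minimal medium (0.75 ± 0.12, adjusted p = 0.00197), with RPL34B at 0.18, and it kept that call without each library in turn. The RPL34A call ended in the fit on only the YEPD libraries (adjusted p = 0.0781) and with a replicate block (adjusted p = 0.101).

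**Figure D4:**
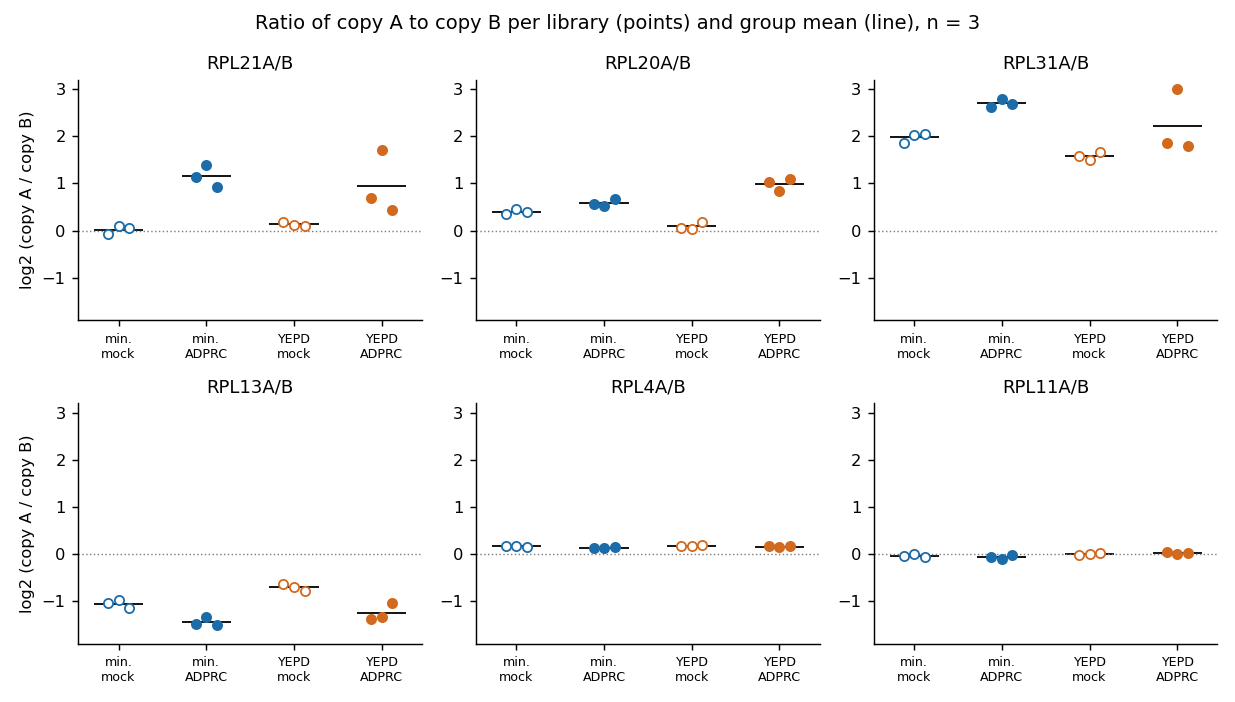
Log2 ratio of copy A to copy B (y axis) in each library of the 4 groups (x axis) for 6 pairs: open points are mock and filled points ADPRC libraries, and the line is the mean of 3. RPL21A/B, RPL20A/B and RPL31A/B lie higher and RPL13A/B lower with ADPRC, while RPL4A/B and RPL11A/B span only 0.054 and 0.149 over all 12 libraries.

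In some pairs the ratio varied little. Over the 12 libraries the log2 ratio spanned 0.054 in RPL4A and RPL4B, 0.115 in RPL35A and RPL35B, 0.149 in RPL11A and RPL11B and 0.181 in RPL1A and RPL1B. ADPRC and mock libraries overlapped in both media for RPL4 and RPL11, while for RPL35 and RPL1 the ratio was lower in every ADPRC library, by a mean of 0.035 and 0.088 in minimal medium and 0.045 and 0.099 in YEPD. The pairs RPL15 and RPL41 were very unequal in every library. RPL15A exceeded RPL15B by a log2 ratio of 3.13 ± 0.16 (SD, n = 3) in mock libraries of minimal medium and 3.05 ± 0.23 in those of YEPD. RPL41A exceeded RPL41B by 2.62 ± 0.20 and 2.38 ± 0.25. ADPRC shifted neither of these ratios beyond the overlap of the groups. RPL15A and RPL15B, with log2 changes of 0.34 and 0.31, were not called in minimal medium.

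Between the media, the level of a few members differed by orders of magnitude. Per 1000 bases of span (introns included), levels in minimal mock libraries ran from 259 normalized counts for RPL22B to 10268 for RPL32, closely followed by RPL5 at 10257. In YEPD mock libraries RPL5 led with 11434. In mock libraries 19 members were higher in minimal medium and 0 lower, where 7.29% of all tested genes were called higher and 22.4% lower. In ADPRC libraries 13 were higher and 1 lower (RPL24B, -0.27 ± 0.10, adjusted p = 0.0409), where 7.05% of all tested genes were called higher and 25.7% lower. The call of RPL24B ended in 5 of the 6 fits without 1 library (adjusted p 0.0623 to 0.121), and without YEPD ADPRC replicate 2 the count of higher members was 63, where 18.4% of all tested genes were called higher. Median differences were 0.30 and 0.20 over the members, against -0.20 and -0.19 over all tested genes.

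The differences were very unequal. RPL43A was at 2783, 2463 and 2714 in mock libraries of minimal medium and 11.2, 14 and 14.2 in those of YEPD. RPL36B was at 2925, 2953 and 2766 in minimal medium and 10.3, 22.1 and 12.9 in YEPD, and RPL28, a gene without a copy that is essential in yeast, at 3063, 2844 and 3242 in minimal medium and 73, 30.1 and 55.5 in YEPD. RPL22A, RPL33A and RPL39 were likewise at 13.7, 25.7 and 12.6 on average in YEPD mock libraries, where 3 reads are worth 2.81 to 3.87 normalized counts. The log2 differences of these 6 were 7.56 ± 0.26 (adjusted p = 4.22e-11) for RPL43A, 7.55 ± 0.25 (adjusted p = 2.21e-11) for RPL36B, 6.92 for RPL22A, 5.91 for RPL28, 5.79 for RPL33A and 5.49 for RPL39. Smaller ones, among members with an opposite-strand frame as described below, were those of RPL10 (1.85), RPL12B (1.81), RPL12A (1.76), RPL8B (1.74), RPL7B (1.43) and RPP0 (0.70). Members without such a frame also had called differences in that range, RPL41A at 1.11, RPL30 at 1.02, RPL29 at 0.87 and RPL9B at 0.77. In the 12 called genes with such a frame the calls in mock and in ADPRC libraries held without each library in turn, as did those of RPL9B. The lowest values in mock libraries were those of RPL13A (-0.24 ± 0.12, adjusted p = 0.148), RPL16B (-0.22 ± 0.11, adjusted p = 0.145), RPL11A (-0.21 ± 0.14, adjusted p = 0.267) and RPL11B (-0.17 ± 0.14, adjusted p = 0.382), none of them called. Between the media, in mock libraries, the ratio of copy A to copy B did not overlap in 18 of 35 pairs (51.4%, beside 45.8% of the small subunit pairs). The group mean of this ratio turned sign in 6 of these pairs. In 4 of them 1 copy was at low counts in YEPD, as in RPL36A and RPL36B, from -2.08 to 4.92, and RPL22A and RPL22B, from 3.26 to -3.28, and likewise in RPL33A and RPL33B and in RPL43A and RPL43B. In RPL8A and RPL8B the mean went from -0.83 to 0.81 and in RPL19A and RPL19B from -0.19 to 0.027, with both copies well above the floor. The ratios of RPL19A to RPL19B in YEPD mock replicates 1, 2 and 3 were -0.061, 0.119 and 0.022, so their sign varied between libraries.

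The 12 genes were grouped by a feature of annotation. By systematic name, 16 of the 81 members have a neighbouring frame on the opposite strand. Each such frame is listed in the deposited table and has no RefSeq entry, as is usual for dubious open reading frames. The match rests on names alone, and whether a frame overlaps its member was not checked. Of those 16 members 12 were higher in minimal mock than in YEPD mock libraries, and the same 12 in ADPRC libraries. Of the 65 members without such a frame 7 were higher in mock libraries (RPL41A, RPL30, RPL29, RPL9B, RPL14A, RPL22B and RPL34A) and 1 in ADPRC libraries (RPL9B). The calls of RPL30 and RPL34A ended without any 1 of the 6 libraries (adjusted p 0.0696 to 0.162), that of RPL22B without 5 (0.0580 to 0.111), that of RPL14A without 4 (0.0580 to 0.113) and that of RPL41A without YEPD mock replicate 1 (adjusted p = 0.0580). Those of RPL29 and RPL9B held without each library in turn. Over all tested genes matched to RefSeq, 24.6% of the 849 with such a frame and 3.98% of the 4574 without were higher in minimal mock libraries. The frame opposite RPL33A (YPL142C) averaged 0 normalized counts in mock libraries of minimal medium and 71.4 in those of YEPD, and that opposite RPL39 (YJL188C) 0 and 54.5, while those opposite RPL43A, RPL36B, RPL28 and RPL22A averaged at most 0.475 in either mock group. The frame opposite RPL8A (YHL034W-A) averaged 0 and 105, the largest such difference among the members' frames, while RPL8A itself was not called between the media. Ribosomal DNA frames on the Watson strand took at most 0.0438% of the reads of a minimal mock library and at least 60.1% of those of a YEPD mock library. Whether strand was used in counting is not given in the sources used here, so medium, library preparation and counting cannot be told apart in these contrasts, and the part of the opposite frames in the result was not tested. Among members with such a frame 9 of 16 were higher with ADPRC in minimal medium and 3 of 16 in YEPD, and among those without 30 of 65 and 19 of 65. Over all matched genes the shares called higher were 11.8% and 4.83% with such a frame and 14.8% and 5.01% without.

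**Figure D5:**
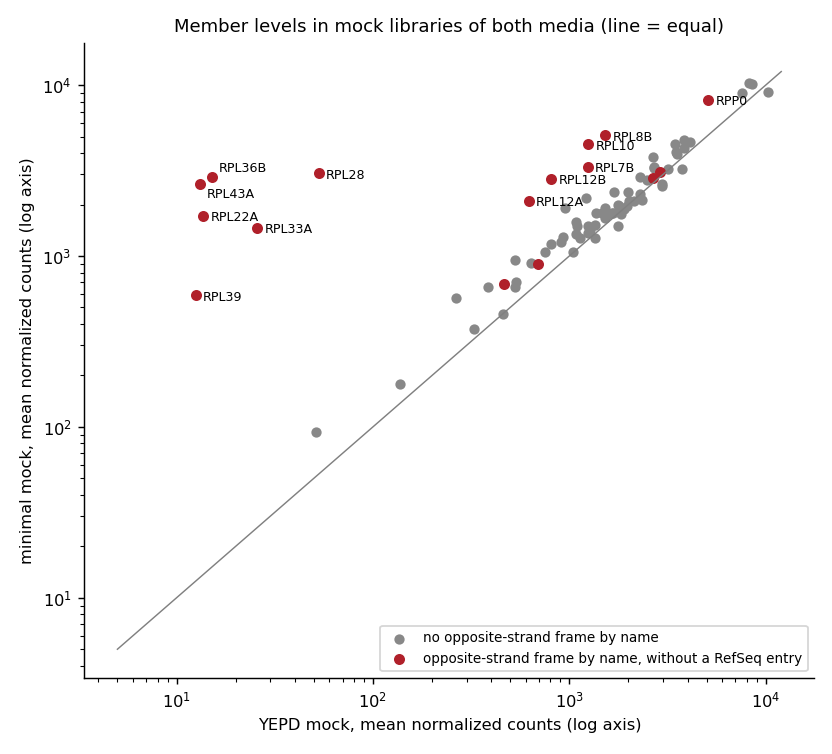
Mean normalized counts of the 81 members in YEPD mock (x axis) and minimal mock libraries (y axis), both on log axes, with n = 3 libraries each and a line of equality. Red points are the 16 members with a neighbouring opposite-strand frame that has no RefSeq entry. Only red points are labelled. The 12 labelled members lie above the line, 6 of them at 12.6 to 52.9 in YEPD mock libraries.

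Among genes that act on the large subunit, several regulators were lower with ADPRC in minimal medium. Of 9 transcription factors and other regulators of ribosomal protein genes, 0 were higher and 6 lower with ADPRC in minimal medium, with a median of -0.48, while 14.6% of all tested genes were called lower there. They were TBF1 (-0.72 ± 0.17, adjusted p = 0.0117), SFP1 (-0.56 ± 0.18, adjusted p = 0.0329), IFH1 (-0.55 ± 0.18, adjusted p = 0.036), STB3 (-0.51 ± 0.13, adjusted p = 0.0143), FHL1 (-0.48 ± 0.14, adjusted p = 0.0257) and RAP1 (-0.33 ± 0.11, adjusted p = 0.039). The calls of SFP1, IFH1 and FHL1 ended without any 1 of the 6 libraries (adjusted p 0.0563 to 0.109), that of RAP1 without 5 (0.0705 to 0.137), that of STB3 without mock replicate 2 or ADPRC replicate 2 (0.0523 and 0.0676) and that of TBF1 without ADPRC replicate 2 (0.0516). In YEPD none of the 9 was called, with a median of -0.32, or -0.13 without YEPD ADPRC replicate 2. Changes fell with span over all genes, as given above, and the part of span in the regulators' values was not tested. None of 5 dedicated chaperones of large subunit proteins was called in either medium. Of 18 assembly and export factors 3 were higher (RPF1, TIF6 and RLP24, at 0.57, 0.37 and 0.36) and 1 lower (NOG2, -0.77 ± 0.11, adjusted p = 0.00117) in minimal medium, beside 14.2% and 14.6% of all tested genes, and none was called in YEPD, or 2 higher without YEPD ADPRC replicate 2. A share of 3 in 18 is near that of all tested genes. The RPF1 call ended without mock replicate 3 or ADPRC replicate 1 (adjusted p = 0.0521 and 0.0628), those of TIF6 and RLP24 without 5 of the 6 libraries (0.0530 to 0.120). The NOG2 call held without each library in turn.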

How the data were processed

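Per the submitters' processing notes, the tools included HTSeq, DESeq, Bowtie, Trimmomatic and FastQC, listed with neither order nor role. For the genome build, strand use, tool versions and multi-position reads, the setting is not given in the sources used here. Deposited values are a normalized count signal: the authors' counts per open reading frame, each column scaled by 1 factor as the values show. In each of the 12 columns they were whole multiples of 1 step (tolerance 0.01 reads), which gave depths. YEPD mock replicate 2, whose step of 1.00 lay within 0.01 of 1, was left out of edgeR and DESeq2, which ran on 11 libraries. No column (0) belonged to other samples.

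The main test was limma 3.58.1 (R 4.3.3) on log2(value + 1) over genes with a mean of at least 10, with 4 group means over 12 libraries, a mean-variance trend and robust estimation, and Benjamini-Hochberg adjustment over 5490 genes. Fold changes of low genes are understated on this scale. edgeR 4.0.16 (quasi-likelihood) and DESeq2 1.42.0 ran on recovered reads as alternatives, and the scripts were tested on simulated data. Spans and symbols came from RefSeq by systematic name (5919 of 6607 identifiers matched). Named genes were the 6 highest and 4 lowest members of each ADPRC contrast, the 4 highest and 4 lowest of the other contrasts, the P stalk, genes without a copy, RPL40A and RPL40B, the 8 pairs that differed most in change and the 4 most in level, and the 4 shortest and 4 longest. One pair that the rule names is not reported here. Others are named to complete a role list or count and were chosen after their values were seen. The members and lists were chosen with earlier results of these data known. A planned search of promoters for motifs was not run, and no sequence or coordinate is given. Precision is limited by 3 libraries a group, and read floors cover counting error only.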

Additional observations from a re-analysis of the deposited data

How the results depend on the processing

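Alternatives covered other pseudocounts, filters, normalizations, count tools, weights, fits and single libraries, and 1 of them, leaving out members with an opposite frame, was chosen after seeing the data. Over single members, 2797 results kept direction and side of the threshold, 260 lost and 182 gained a call, and 1 reversed: RPL32 in minimal medium, whose change was -0.011 once the length trend was removed (adjusted p = 0.949). In minimal medium the 39 higher members became 64 with the same total per library, 67 with library weights, 68 with only the groups compared and 21 with the length trend removed. Lower members, 0, became 1 with the same total outside ribosomal DNA, 1 with only the groups compared and 6 with length removed. In YEPD the 22 higher members became 8 with edgeR, 39 with weights, 3 with only the groups compared and 13 with length removed. The difference between media, 0 and 0, became 19 higher and 3 lower with weights. In mock libraries the 19 higher in minimal medium became 81 with the same total, 44 with weights, 53 with only the groups compared, 30 with length removed and 7 without members that have an opposite frame. The 0 lower became 1 with quantile normalization, 3 with weights and 6 with only the groups compared. In ADPRC libraries the 13 higher became 81 with the same total, 20 with TMM, 62 with weights, 20 with length removed and 1 without members that have an opposite frame. The 1 lower became 2 with no filter and with no trend, 4 with weights, and 0 with the same total, the same total outside ribosomal DNA, TMM, quantile normalization, edgeR, DESeq2 or only the groups compared. The same total put the median of all genes at 0.44 and that of the members at 0.98 for ADPRC in minimal medium, at 0.18 and 0.72 in YEPD, and at 1.03 and 1.54 in mock and 1.28 and 1.69 in ADPRC libraries between media. For these counts the cause was not tested. Shares of all tested genes called under these alternatives are not given, so the counts cannot be read as particular to the members. Without 1 library each, counts ran from 22 to 26 in minimal medium, 8 to 51 in YEPD, 0 to 28 higher and 0 to 2 lower for the difference, 14 to 18 in mock and 13 to 63 higher and 0 to 3 lower in ADPRC libraries between media, and 20 to 24 and 13 to 22 pairs without overlap. The counts of pairs without overlap can only stay or rise when a library is left out. With a replicate block the counts of higher members were 24 in minimal medium and 3 in YEPD. Deviations of libraries with the same number had correlations of -0.023, -0.086 and -0.059 in minimal medium and -0.036 and -0.146 in YEPD. Deviations were taken from group means of only 3 libraries, and 1 YEPD ADPRC library is unnumbered. These values therefore cannot decide whether the numbers pair the samples. The block could not be fitted between media, nor the fit on only the groups compared for the difference. Depth limits members at low counts in YEPD, such as RPL43A and RPL39, which averaged 13.2 and 12.6 normalized counts in YEPD mock libraries.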
